A study of Mus musculus with 12 samples.

Results

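Ebf2-EGFP+ cells of the mouse cerebral cortex were compared between the embryonic stages E11.5 and E13.5, named by days of gestation. They make up 4 of the 12 RNA-seq libraries of the series, 2 at each stage, and were taken by their stage and cell labels alone. All came from Tg(Ebf2-EGFP)FB58Gsat mice, a bacterial artificial chromosome line in which regulatory DNA of *Ebf2* drives enhanced green fluorescent protein (EGFP), and the cells were dissociated and sorted for EGFP by FACS. No treatment or further allele was labelled at either stage, and the study's methods describe embryos of several mice pooled for each sort. The reporter marks whichever cells hold EGFP protein at that stage, so the sorted cells of both stages need not be of the same types, and the EGFP transcript is not among the measured features. Levels are FPKM, fragment counts scaled by transcript length and by the mapped fragments of the library, for 4859 genes, among them noncoding RNAs such as *Rn45s* and *Meg3*, and in a separate table for 200 long noncoding RNA (lncRNA) transcripts. Both tables hold only features that the authors reported as differential in the series, so every count below is a count within those lists.

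The first neurons of the cortex form the preplate, a layer beneath the pia. It holds Cajal-Retzius (CR) neurons, which come from the cortical hem, septum and other borders of the pallium and secrete reelin, and subplate neurons. The cortical plate then splits the preplate, leaving CR neurons above in layer 1 and subplate neurons below, and in this line EGFP is described as fading from subplate neurons while CR neurons keep it. The comparison therefore asks which transcripts the EGFP+ population gained and lost over the step in which the preplate is split.

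The markers of the sorted population did not move together. *Ebf2*, the EBF transcription factor whose regulatory DNA drives the reporter, stood at 61.2 and 49.1 FPKM at E11.5 and 6.66 and 4.32 FPKM at E13.5 (log2 change -3.13 ± 0.20 SE, adjusted p = 8.0e-06; limma on log2(FPKM + 1), 2 libraries a stage, Benjamini-Hochberg adjustment). The transcript that names the population was thus lower in both E13.5 libraries than in both E11.5 libraries. *Syt4*, a synaptotagmin of vesicle traffic, was at 27.8 and 21.4 FPKM at E11.5 and 74.9 and 51.3 FPKM at E13.5 (log2 change 1.31 ± 0.20 SE, adjusted p = 5.2e-04). *Rnd2*, a small GTPase of migrating cortical neurons, was at 325 and 344 FPKM at E11.5 and 604 and 492 FPKM at E13.5 (log2 change 0.70 ± 0.17 SE, adjusted p = 0.0058). For all 3 markers the libraries of both stages were apart, with *Ebf2* lower and *Syt4* and *Rnd2* higher at E13.5, but *Rnd2* was no longer called without E13.5 replicate 1 (adjusted p = 0.062). *Ebf2* lies at chr14:67233292-67430918 and *Rnd2* at chr11:101464999-101471853 on GRCm38 (mm10), and *Rnd2* overlaps *Vat1* on the other strand, from which it cannot be told apart because the strand of the reads is not stated.

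In the whole gene table, 1191 of 4859 genes (24.5%) were higher and 1979 (40.7%) lower at E13.5 at an adjusted p under 0.05, and 1689 were not called. All 3170 called genes had both libraries of 1 stage above both of the other. So did 952 of the 1689 genes not called, which makes 4122 of all 4859. A change of at least 2-fold was reached by 462 of the genes called higher and 713 of those called lower, and one of at least 8-fold by 19 and 29. The median log2 change of all listed genes was -0.20, and when the libraries were scaled by median of ratios it was -0.01. The factors came from these same listed genes, most of which were called, so a median near 0 follows from the method. Which scaling is the truer one was not tested. With that scaling 1592 genes (32.8%) were called higher and 1534 (31.6%) lower, so the share of calls that were higher went from 37.6% to 50.9%. Of the 3170 calls, 2725 were made in the same direction with both scalings, 445 were lost and 0 turned. Where the text below gives a list median, it is therefore given on both scales, and a list is read against the 24.5% and 40.7% of the whole table.

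The depth of each library could not be read from the tables, which hold no fragment counts, and the study's methods give only an average over samples. FPKM over the listed genes summed to between 115111 and 130890 in the 4 libraries. The median absolute log2 difference between the 2 libraries of a stage was 0.13 at E11.5 and 0.18 at E13.5, against 0.56 between the stages. Genes of RNAs that carry no poly(A) tail were higher at E13.5, as noticed after their values were seen. The ribosomal RNA precursor *Rn45s* was at 183 and 312 FPKM at E11.5 and 1971 and 1275 FPKM at E13.5, and *Rmrp* and *Rpph1*, RNA parts of ribonucleases, went from 3.94 and 3.08 to 36.9 and 21.02 FPKM and from 0.8502 and 1.27 to 6.93 and 8.69 FPKM. *Lars2*, the mitochondrial leucyl-tRNA synthetase, went from 83.1 and 121 to 661 and 513 FPKM (log2 change 2.52 ± 0.21 SE, adjusted p = 2.3e-05). *Rn45s* took 0.148% and 0.271% of the listed FPKM at E11.5 and 1.51% and 1.06% at E13.5, and its part in the other changes was not tested.

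**Figure D1:**
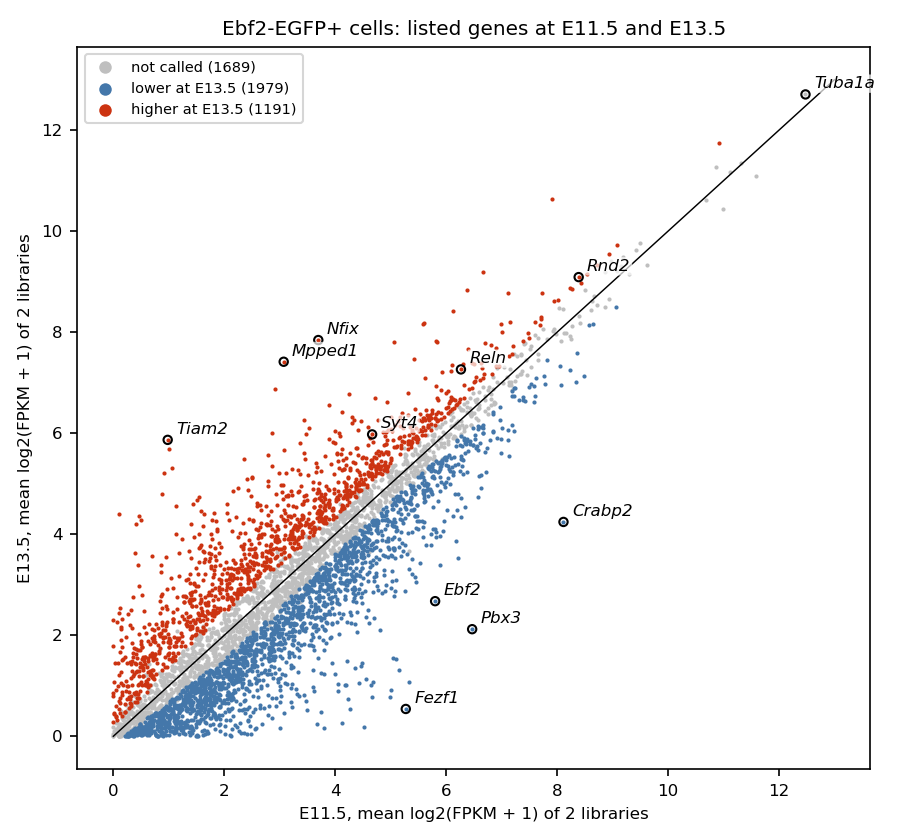
Mean log2(FPKM + 1) of 2 libraries at E11.5 (x axis) against E13.5 (y axis) for 4859 listed genes, coloured by the limma call, with the line of equal level. The 1979 genes lower at E13.5 lie below the line and the 1191 higher genes above it, with a median log2 change of -0.20 over all of them.

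The largest losses included homeobox and zinc finger transcription factors. *Fezf1*, a zinc finger factor of forebrain development, was at 39.2 and 36.3 FPKM at E11.5 and 0.787 and 0.184 FPKM at E13.5 (log2 change -4.73 ± 0.22 SE, adjusted p = 4.1e-06). *Pbx3*, a TALE homeobox cofactor, was at 95.4 and 80.6 FPKM at E11.5 and 4.34 and 2.54 FPKM at E13.5 (log2 change -4.35 ± 0.20 SE, adjusted p = 4.1e-06). *Otp*, a homeobox factor best known from hypothalamic neurons, was at 29.04 and 16.6 FPKM at E11.5 and 0.247 and 0.0357 FPKM at E13.5 (log2 change -4.34 ± 0.26 SE, adjusted p = 7.9e-06). Each of these had left the range of E11.5 in both E13.5 libraries, and *Fezf1* and *Otp* were under 1 FPKM in both. *Uncx*, another homeobox gene, went from 34.4 and 27.3 to 0.979 and 0.484 FPKM (log2 change -4.21), and *Etv1*, an ETS factor, from 36.2 and 33.2 to 2.48 and 0.7701 FPKM (-3.85). The remaining 7 of the 12 largest losses were of other kinds. *Rasgrp1*, a Ras exchange factor, went from 36.6 and 41.8 to 1.83 and 0.563 FPKM (-4.25), and *Samd3*, a sterile alpha motif protein, from 25.8 and 37.2 to 1.52 and 0.394 FPKM (-4.09). *Robo3*, a guidance receptor of commissural axons, went from 20.6 and 28.6 to 1.13 and 0.375 FPKM (-3.89), and *Crabp2*, a binding protein of retinoic acid, from 299.6 and 256 to 26.5 and 12.1 FPKM (-3.87). *Crabp2* was the most abundant of the 12 at E11.5. *Col3a1*, a fibrillar collagen, went from 14.7 and 18.3 to 0.337 and 0.0858 FPKM (-3.86), *Dlk1*, an imprinted gene for a Notch-like membrane protein, from 18.9 and 17.5 to 0.6097 and 0.297 FPKM (-3.73), and *Chrna4*, a nicotinic acetylcholine receptor subunit, from 25.4 and 22.7 to 1.23 and 0.826 FPKM (-3.63). In all 12 the libraries of both stages were apart, as their choice required. *Fezf1* lies at chr6:23245044-23248362, *Pbx3* at chr2:34171457-34373142 and *Otp* at chr13:94875602-94885130 on GRCm38.

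*Tiam2*, an exchange factor for Rac, had the largest gain, at 0.575 and 1.47 FPKM at E11.5 and 51.98 and 63.5 FPKM at E13.5 (log2 change 4.89 ± 0.23 SE, adjusted p = 4.1e-06). *Ndrg1*, a gene of cell differentiation and stress responses, was at 0.983 and 1.04 FPKM at E11.5 and 52.9 and 47.9 FPKM at E13.5 (log2 change 4.67 ± 0.16 SE, adjusted p = 1.2e-06). *Mpped1*, a metallophosphoesterase domain protein, was at 7.62 and 7.203 FPKM at E11.5 and 154 and 187 FPKM at E13.5 (log2 change 4.34 ± 0.14 SE, adjusted p = 1.2e-06). All 3 were higher in both E13.5 libraries than in both E11.5 libraries, which was a condition for the 12 largest gains. *Sla*, a Src-like adaptor, went from 0.0908 and 0.0577 to 19.5 and 20.9 FPKM (4.302), *Lpl*, lipoprotein lipase, from 0.868 and 0.884 to 33.6 and 38.5 FPKM (4.300), and *Ppp1r1b*, an inhibitor of protein phosphatase 1, from 0.851 and 1.36 to 39.2 and 38.7 FPKM (4.26). *Nfix*, a nuclear factor I protein, went from 8.58 and 16.5 to 179 and 293 FPKM (4.15) and was the most abundant of the 12 at E13.5. *Cdh13*, a cadherin held by a lipid anchor, went from 5.97 and 7.11 to 108 and 125 FPKM (3.96), and *Nr4a3*, an orphan nuclear receptor that activity induces, from 0.938 and 0.747 to 19.6 and 36.5 FPKM (3.92). *Adamts3*, a secreted metalloproteinase known to cut procollagen and reelin, went from 0.184 and 0.614 to 18.2 and 21.3 FPKM (3.904). *Rlbp1*, a retinaldehyde-binding protein, went from 0.229 and 0.419 to 15.7 and 19.4 FPKM (3.81), and *Nos1*, the neuronal nitric oxide synthase, from 0.403 and 0.419 to 14.8 and 22.8 FPKM (3.78). The 2 E13.5 libraries were farthest apart for *Nfix* and *Nr4a3*, both higher in replicate 2. *Tiam2* lies at chr17:3326573-3531344, *Ndrg1* at chr15:66929318-66969640 and *Mpped1* at chr15:83779467-83858494, and *Tiam2*, *Sla* and *Nfix* each overlap another coding gene on the opposite strand (*Tfb1m*, *Tg*, and *Lyl1* with a further gene).

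**Figure D2:**
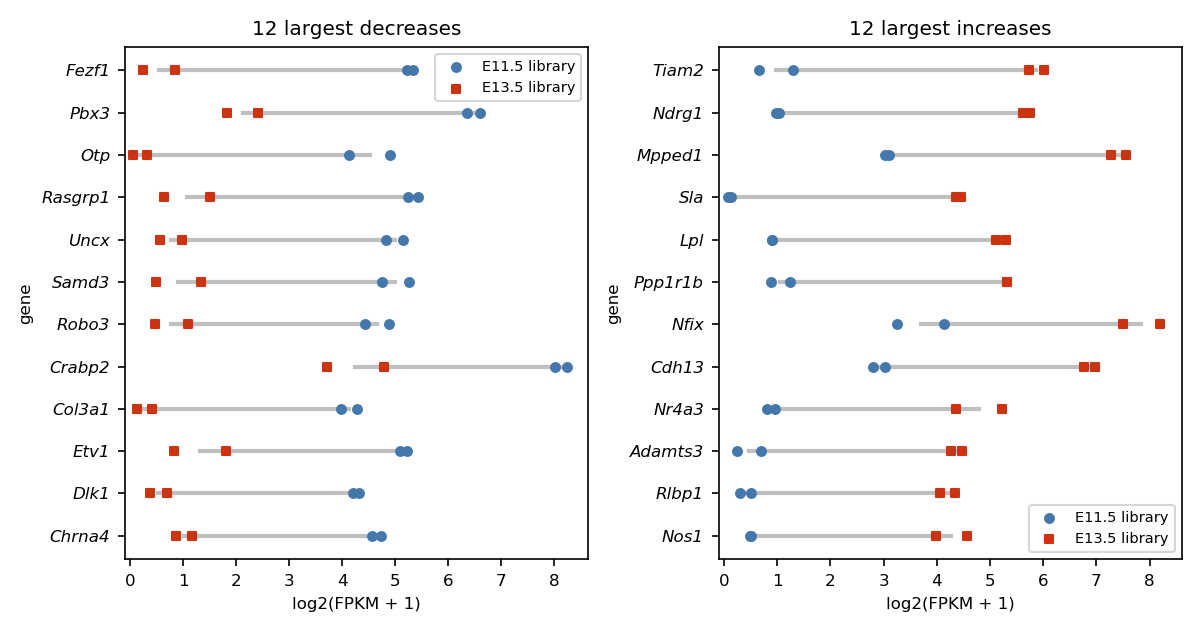
log2(FPKM + 1) in each library (circles, E11.5; squares, E13.5) for the 12 genes with the largest decrease (left) and increase (right), with a bar joining the stage means. In each of the 24 genes the 2 libraries of 1 stage lie on the same side of both libraries of the other, as their choice required.

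Few genes went from clearly present to nearly absent, or the reverse. With limits chosen after the values were seen, 27 genes were at or above 5 FPKM in both E11.5 libraries and under 1 FPKM in both at E13.5, and 15 met the reverse. At the same limits, 2132 genes were at or above 5 FPKM in all 4 libraries. Besides *Fezf1*, *Otp*, *Uncx* and *Dlk1*, the 27 lost genes held the collagens *Col1a1*, *Col1a2*, *Col2a1* and *Col3a1*. They also held the zinc finger homeobox genes *Zfhx3* (7.29 and 9.59 to 0.422 and 0.5804 FPKM) and *Zfhx4* (16.9 and 18.6 to 0.708 and 0.609 FPKM). *Gmnc*, a geminin relative of multiciliated cell formation, went from 12.4 and 12.3 to 0.817 and 0.0728 FPKM, and *Hmga2*, a chromatin protein of embryonic progenitors, from 9.19 and 10.5 to 0.909 and 0.6404 FPKM. The 15 gained genes held 3 secreted metalloproteinases, *Adamts3*, *Adamts17* (0.536 and 0.692 to 8.74 and 13.6 FPKM) and *Adamts18* (0.229 and 0.392 to 10.5 and 12.3 FPKM). They also held the kinase gene *Camk4* (0.388 and 0.478 to 5.27 and 6.63 FPKM), the monoglyceride lipase gene *Mgll* (0.399 and 0.353 to 7.03 and 6.72 FPKM) and *Trnp1*, a nuclear protein that regulates cortical expansion (0.884 and 0.744 to 7.101 and 10.1 FPKM).

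Of 20 genes chosen for CR neurons, 19 were in the table, and 14 fell, 2 rose and 3 were not called. Their median log2 change was -1.91 (-1.64 with median-of-ratios scaling), and the 16 calls were made in the same direction with both scalings. *Barhl2*, a homeobox gene, fell most, from 36.1 and 30.4 to 2.35 and 1.52 FPKM (log2 change -3.56 ± 0.19 SE, adjusted p = 5.3e-06). The EBF factors fell with *Ebf2*: *Ebf1* went from 22.3 and 20.3 to 2.24 and 1.28 FPKM (log2 change -3.04) and *Ebf3* from 45.4 and 45.1 to 10.3 and 9.36 FPKM (-2.098). *Lhx5* and *Lhx1*, LIM homeobox factors of the cortical hem and eminence, went from 25.5 and 21.5 to 4.06 and 3.44 FPKM (-2.37) and from 12.2 and 13.7 to 2.83 and 1.8 FPKM (-2.09). *Nr2f2*, an orphan nuclear receptor of caudal cortex, went from 76.6 and 65.97 to 13.9 and 13.4 FPKM (-2.301), and *Nhlh2*, a helix-loop-helix factor of newborn neurons, from 107 and 83.7 to 26.8 and 24.8 FPKM (-1.84). All of these transcription factors were still above 1 FPKM in both E13.5 libraries.

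Structural and signalling genes of the CR list showed both directions. The calcium-binding protein gene *Calb2*, for calretinin, went from 65.9 and 51.2 to 16.3 and 13.2 FPKM (-1.91), and *Calb1*, for calbindin, from 2.57 and 1.92 to 0.421 and 0.265 FPKM (-1.27). *Tmem163*, a zinc-binding membrane protein, went from 65.2 and 52.5 to 10.4 and 8.61 FPKM (-2.504), *Cdkn1a*, a cyclin-dependent kinase inhibitor, from 36.4 and 29.01 to 9.08 and 3.68 FPKM (-2.29), and *Trp73*, the p53 relative needed by CR neurons, from 32.7 and 36.9 to 12.9 and 11.98 FPKM (-1.41). *Cacna2d2*, a calcium channel subunit, had the smallest of the 14 decreases (-0.80) and was not called without E11.5 replicate 2 (adjusted p = 0.068). *Reln*, which encodes reelin, was at 75.9 and 76.3 FPKM at E11.5 and 125 and 187 FPKM at E13.5 (log2 change 0.997 ± 0.18 SE, adjusted p = 0.0016), and *Nxph3*, a neurexophilin that binds neurexins, at 1.88 and 2.14 FPKM at E11.5 and 16.7 and 26.3 FPKM at E13.5 (log2 change 2.87 ± 0.22 SE, adjusted p = 1.8e-05). These 2 genes were higher in both E13.5 libraries, while the others of the list named so far were lower. *Ndnf* (-0.25, adjusted p = 0.40), *Car10* (-0.06, 0.70) and *Spock1* (0.68, 0.093) did not pass the test, and *Spock1* passed it as higher with median-of-ratios scaling. In bulk samples such as these, fewer cells of a type and less RNA per cell cannot be told apart.

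Genes of the preplate and subplate moved apart. Of 22 chosen, 20 were in the table, 9 rose, 8 fell and 3 were not called, with a median of 0.20 (0.38 scaled). Those that rose made 45%, against 24.5% of all listed genes, and those that fell 40%, against 40.7%. *Rprm*, a p53-induced cell cycle inhibitor used as a deep-layer marker, was at 29.1 and 36.3 FPKM at E11.5 and 235 and 214 FPKM at E13.5 (log2 change 2.75 ± 0.14 SE, adjusted p = 5.3e-06). *Crym*, a thyroid hormone binding protein, went from 0.834 and 1.05 to 10.9 and 10.7 FPKM (2.600), *Hs3st4*, a heparan sulfate sulfotransferase, from 2.21 and 1.82 to 9.81 and 16.6 FPKM (2.198), and *Zfpm2*, a GATA cofactor of corticothalamic neurons, from 6.09 and 8.63 to 25.1 and 30.5 FPKM (1.796). *Gabra5* (1.66), *Tmem178* (1.27), *Sv2b* (0.82) and *Pde1a* (0.61) also rose, as did *Syt4*. *Nhlh2*, also counted among the CR genes, had the largest of the 8 decreases (-1.84). Among the others that fell, *Nr4a2*, an orphan nuclear receptor of subplate neurons, went from 7.401 and 8.41 to 3.26 and 2.51 FPKM (-1.201), and *Nxph4*, a neurexophilin, from 114 and 104 to 58.1 and 56.97 FPKM (-0.91). *Myt1* and *St18*, zinc finger factors of the same family, went from 82.7 and 81.7 to 38.7 and 35 FPKM (-1.14) and from 40.2 and 40.7 to 22.4 and 20.3 FPKM (-0.89). *Svil* (-1.04), *Lpar1* (-1.03) and *Tle4* (-0.51) fell as well, and *Tle4* was not called with median-of-ratios scaling (adjusted p = 0.24) or without either E11.5 library (0.085 and 0.052). Likewise *Sv2b* was not called without replicate 1 of E11.5 or of E13.5 (0.095 and 0.071), nor *Pde1a* without E11.5 replicate 1 (0.21), E11.5 replicate 2 (0.062) or E13.5 replicate 1 (0.080). *Ctgf* and *Kcnab1* stayed under 0.5 FPKM in all libraries, with log2 changes of 0.03 and 0.08, and *Igfbpl1*, at 229 and 200.2 FPKM at E11.5 and 261 and 273 FPKM at E13.5, did not pass the test (log2 change 0.32 ± 0.14 SE, adjusted p = 0.077), but was called higher with median-of-ratios scaling (adjusted p = 0.012).

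**Figure D3:**
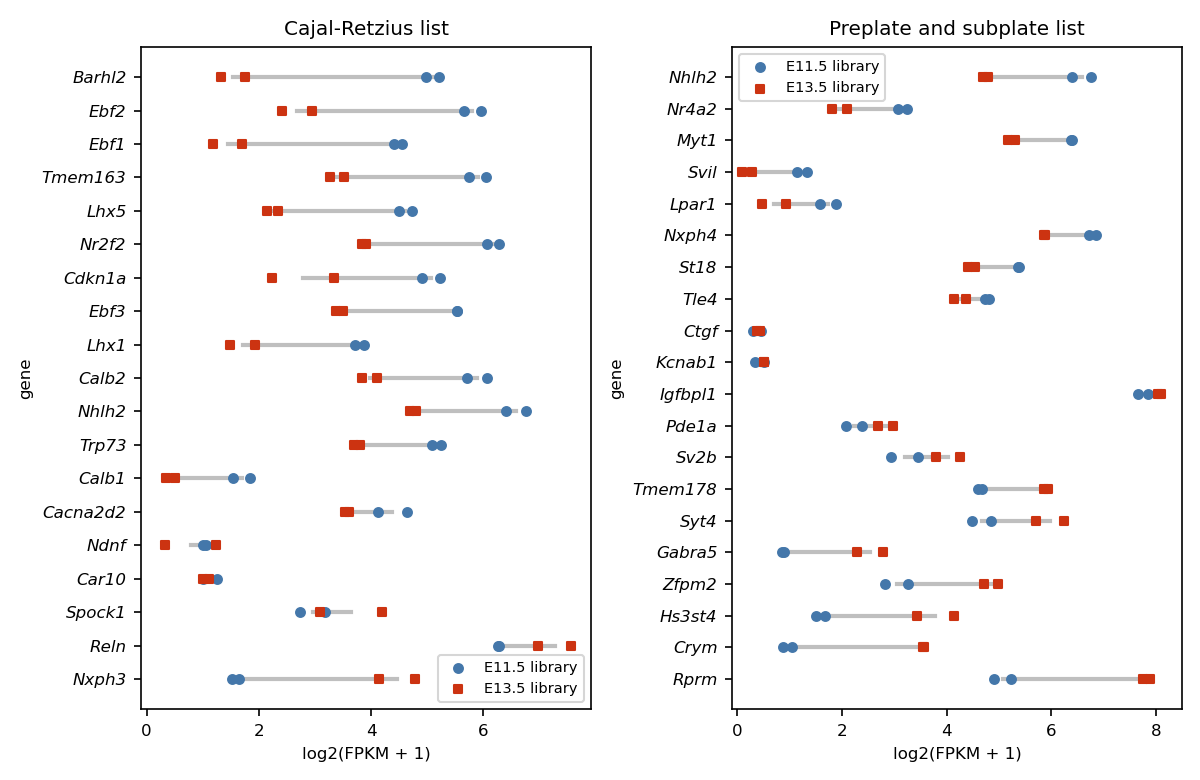
log2(FPKM + 1) in each library (circles, E11.5; squares, E13.5) of the 19 listed CR neuron genes (left) and 20 listed preplate and subplate genes (right), ordered by log2 change, with a bar joining the stage means. In the left panel the E13.5 squares lie left of the E11.5 circles for 14 called genes and right of them for *Reln* and *Nxph3*, and in the right panel the called genes divide into 8 lower and 9 higher.

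Patterning factors of the hem, septum, thalamic eminence and pallium mostly fell. Of 30 listed, 26 fell, 1 rose and 3 were not called, with a median log2 change of -1.33 (-1.05 scaled, where 24 fell). *Pbx3* had the largest decrease. *Meis1*, a partner homeobox gene of the PBX factors, went from 21.4 and 23.8 to 1.46 and 0.985 FPKM (log2 change -3.42 ± 0.18 SE, adjusted p = 5.3e-06). *Lhx9*, a LIM homeobox gene of the eminence, went from 71.3 and 74.9 to 14.5 and 7.59 FPKM (-2.68), and *Zic4*, a zinc finger gene of the midline, from 5.36 and 6.53 to 0.364 and 0.318 FPKM (-2.37).

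Genes of the ganglionic eminences and GABAergic interneurons mostly stood at a few FPKM at E11.5 and lower at E13.5. Of 26 listed, 18 fell, 3 rose and 5 were not called (median -0.97, -0.87 scaled). *Isl1*, a LIM homeobox gene, went from 4.03 and 4.26 to 0.0629 and 0.0152 FPKM (-2.31), *Dlx6* from 2.19 and 2.35 to 0 and 0.0805 FPKM (-1.65) and *Six3* from 1.94 and 2.19 to 0.0281 and 0 FPKM (-1.59), both homeobox genes of the ventral forebrain. In each E13.5 library 2 genes of the list were at 0, *Dlx6* and *Nkx2-1* in replicate 1 and *Six3* and *Gsx1* in replicate 2. *Zeb2*, a zinc finger homeobox factor, rose from 12.1 and 19.4 to 46.2 and 49.4 FPKM (1.58) and *Sst*, for somatostatin, from 1.01 and 2.14 to 4.95 and 2.43 FPKM (0.84). *Sst* was not called without replicate 1 of E11.5 or of E13.5 (adjusted p = 0.25 and 0.19), and 1 member of the list was then higher. The summed level of the list was 80.3 and 88.8 FPKM at E11.5 and 72.4 and 67.2 FPKM at E13.5, with *Ebf1* the largest term at E11.5 and *Zeb2* at E13.5. The part of interneuron RNA in the other changes was not tested.

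Markers of meninges and fibroblasts fell over the same step. Of 16 listed, 13 fell, 1 rose and 2 were not called, and their summed level was 389.7 and 357 FPKM at E11.5 and 42.1 and 22.5 FPKM at E13.5, with *Crabp2* the largest term. *Col1a2* and *Col1a1*, chains of type I collagen, went from 12.9 and 12.9 to 0.168 and 0.0859 FPKM (-3.63) and from 10.9 and 12.7 to 0.304 and 0.0786 FPKM (-3.43). *Dcn*, for decorin, was the member that rose, from 0.152 and 0.332 to 0.636 and 0.6899 FPKM (0.42), and was not called without E11.5 replicate 1 (adjusted p = 0.059). *Foxd1* and *Aldh1a2* were at 0 in E13.5 replicate 1. The part of meningeal RNA in the other changes was not tested.

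Globin transcripts, which red blood cells carry, also fell and varied between replicates. The embryonic *Hbb-y* was at 55.01 and 18.4 FPKM at E11.5 and 3.33 and 0.992 FPKM at E13.5 (log2 change -3.49 ± 0.48 SE, adjusted p = 3.4e-04), *Hba-x* at 33.2 and 12.5 FPKM at E11.5 and 0.963 and 1.21 FPKM at E13.5 (-3.37) and *Hbb-bh1* at 8.49 and 1.75 FPKM at E11.5 and 0.4699 and 0.422 FPKM at E13.5 (-1.82). E11.5 replicate 1 was the highest library for all 3. *Hbb-b2*, an adult-type globin, rose (1.31), while *Hbb-b1*, a near copy whose reads may be split with it, was at 1.23 and 0.000599 FPKM at E11.5 and 0.000845 and 4.401 FPKM at E13.5 and was not called (adjusted p = 0.41). Of 8 listed erythroid genes 5 fell and 1 rose, with *Car2* (-0.42) and *Slc4a1* (-0.19) among the 5, and *Alas2* was not called (-0.15). Without E13.5 replicate 2 only 2 were lower, *Hbb-bh1* (adjusted p = 0.056), *Car2* (0.056) and *Slc4a1* (0.092) being lost, and *Hbb-b2* was lost without either E11.5 library (0.081 and 0.065). *Slc4a1* was also lost without replicate 1 of E11.5 or of E13.5 (0.099 and 0.12). Their summed level was 101 and 35.2 FPKM at E11.5 and 15.3 and 10.1 FPKM at E13.5. Of 7 listed endothelial markers, whose sums ran from 11.1 to 14.2 FPKM with *Slc2a1* the largest term, *Cldn5* (0 and 0.143 to 0.6002 and 0.318 FPKM), *Egfl7* (0.837 and 0.841 to 1.57 and 1.41 FPKM) and *Ramp2* (0.327 and 0.721 to 1.01 and 1.04 FPKM) were called higher and *Cdh5*, *Kdr*, *Ets1* and *Slc2a1* were not called. *Cldn5* was at 0 in E11.5 replicate 1, and without that library none of the 3 was called (adjusted p = 0.056, 0.086 and 0.25 for *Cldn5*, *Egfl7* and *Ramp2*). *Egfl7* was also lost without E11.5 replicate 2 (0.088), *Cldn5* and *Ramp2* without E13.5 replicate 1 (0.055 and 0.071) and *Ramp2* without E13.5 replicate 2 (0.087). Of the 2 listed microglia genes, *Aif1* was called higher (0.272 and 0.359 to 0.933 and 0.673 FPKM) and *Cd68* was not (0.08), with sums of 1.13 and 1.35 FPKM at E11.5 and 2.13 and 1.54 FPKM at E13.5. The part of blood, vessel and microglial RNA in the other changes was not tested.

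Genes of dividing progenitors fell almost without exception. Of 32 cell cycle and DNA replication genes 31 fell, 0 rose, and *Pcna* was not called, with a median log2 change of -1.302 (-1.06 scaled, where 29 fell). *Ccnd1*, the cyclin of early G1, was at 30.7 and 23.96 FPKM at E11.5 and 4.24 and 2.49 FPKM at E13.5 (log2 change -2.72 ± 0.22 SE, adjusted p = 2.3e-05). *Top2a*, the DNA topoisomerase of dividing cells, was at 66.6 and 55.6 FPKM at E11.5 and 21.04 and 11.8 FPKM at E13.5 (log2 change -1.88 ± 0.23 SE, adjusted p = 1.8e-04), *Mki67*, a proliferation marker, at 28.8 and 34.7 FPKM at E11.5 and 10.7 and 6.92 FPKM at E13.5 (-1.76) and *Cenpe*, a kinetochore motor, at 12.97 and 12.9 FPKM at E11.5 and 4.5 and 2.46 FPKM at E13.5 (-1.68). For *Top2a*, *Mki67* and *Cenpe* the E13.5 replicate 2 was the lowest library. The summed level of the list was 861 and 782 FPKM at E11.5 and 409.8 and 277 FPKM at E13.5, so the transcripts were reduced and not lost.

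The promoters of cell cycle genes are known to share a CCAAT box and a TTTGAA element (the core of the cell cycle genes homology region), and both were searched for on both strands. RefSeq promoters of GRCm38.p6, from 250 bases before to 50 after the start site, were found for 26 of the 32 genes. CCAAT was in 23 of their 27 promoters (85.2%), against 37.4% of all 32851 promoters, and TTTGAA in 12 (44.4%), against 17.9%. Among promoters of all genes called lower, CCAAT was in 39.9% and TTTGAA in 15.1%, and among those called higher in 31.4% and 10.02%. Among promoters of all listed genes the shares were 37.4% and 12.9%. These shares describe letters in the windows and not sites of binding. The promoters of the 3 genes with both elements and the largest decreases are shown because 31 of the 32 genes fell, in lower case with CCAAT and TTTGAA, or their reverse complements, in capitals. They are *Top2a* at chr11:99024140-99024439 (minus strand), *Mki67* at chr7:135716330-135716629 (minus strand) and *Ccnb2*, a mitotic cyclin that went from 16.5 and 14.96 to 6.35 and 2.99 FPKM, at chr9:70421505-70421804 (minus strand).
Top2a: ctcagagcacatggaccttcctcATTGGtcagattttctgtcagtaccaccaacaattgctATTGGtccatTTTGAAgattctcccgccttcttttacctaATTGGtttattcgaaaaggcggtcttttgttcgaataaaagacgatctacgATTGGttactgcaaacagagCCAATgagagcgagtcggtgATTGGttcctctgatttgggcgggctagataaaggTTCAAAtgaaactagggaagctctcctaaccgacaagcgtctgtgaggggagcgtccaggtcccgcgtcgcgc
Mki67: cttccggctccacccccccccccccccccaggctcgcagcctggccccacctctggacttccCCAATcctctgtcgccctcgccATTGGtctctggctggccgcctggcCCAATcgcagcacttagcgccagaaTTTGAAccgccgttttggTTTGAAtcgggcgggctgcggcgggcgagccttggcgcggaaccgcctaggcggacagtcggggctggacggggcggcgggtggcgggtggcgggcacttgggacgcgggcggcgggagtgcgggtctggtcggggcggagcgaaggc
Ccnb2: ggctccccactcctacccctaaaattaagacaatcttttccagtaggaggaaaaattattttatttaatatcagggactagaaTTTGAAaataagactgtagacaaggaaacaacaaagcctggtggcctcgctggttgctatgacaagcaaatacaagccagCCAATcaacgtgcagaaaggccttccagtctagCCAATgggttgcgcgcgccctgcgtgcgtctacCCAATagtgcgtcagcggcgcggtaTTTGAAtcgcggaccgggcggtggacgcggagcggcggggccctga

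*Top2a* holds 6 CCAAT boxes and 2 TTTGAA elements, and *Mki67* and *Ccnb2* hold 3 and 2 each. The TTTGAA element nearest the start site begins 23 bases before it in *Top2a* and 98 bases before it in *Mki67*.

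Radial glia genes were lower as well. Of 23 listed, 17 fell, 2 rose and 4 were not called (median -0.98, -0.77 scaled). *Hmga2* fell most (-2.61). *Emx2*, a homeobox gene of the dorsal pallium, went from 66.7 and 56.6 to 20.1 and 16.3 FPKM (-1.71), *Nes*, for the intermediate filament nestin, from 34.6 and 42.6 to 11.7 and 10.7 FPKM (-1.69), *Tead2*, a Hippo pathway factor, from 53.4 and 55.96 to 20.3 and 13.04 FPKM (-1.69) and *Notch1* from 11.6 and 11.3 to 4.04 and 2.95 FPKM (-1.48). *Fabp7*, a fatty acid binding protein of radial glia, went the other way, from 16.4 and 16.6 to 50.4 and 50.96 FPKM (log2 change 1.56 ± 0.12 SE, adjusted p = 1.8e-05), and *Slc1a3*, a glutamate transporter, rose at low level from 0.477 and 0.6303 to 1.69 and 1.19 FPKM (0.65). Of 34 Notch and Wnt pathway genes 20 fell and 3 rose (median -0.62, -0.44 scaled). The ligand gene *Wnt8b* of the hem went from 4.11 and 4.67 to 0.446 and 0.0445 FPKM (-2.13), *Rspo2*, a Wnt enhancer, from 4.503 and 5.88 to 1.63 and 0.777 FPKM (-1.51) and *Mfng*, a glycosyltransferase that modifies Notch, from 75.6 and 68.8 to 28.1 and 15.98 FPKM (-1.72). *Fzd9* (0.77), a frizzled receptor, *Sfrp1* (0.56), a secreted Wnt antagonist, and *Wnt7b* (0.36) rose, but *Fzd9* was not called without E11.5 replicate 2 (adjusted p = 0.063) and *Wnt7b* not when any library was left out (0.050 to 0.27).

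In the neurogenic cascade, *Neurog1*, *Neurod4* and *Eomes* fell while *Neurod6* and *Neurod2* rose. Of 20 listed genes 12 fell, 4 rose and 4 were not called (median -0.68, -0.42 scaled). *Neurog1*, a proneural helix-loop-helix factor, went from 10.3 and 7.64 to 1.196 and 0.673 FPKM (-2.36), *Neurod4* from 5.197 and 4.79 to 1.04 and 0.753 FPKM (-1.66) and *Eomes*, the T-box factor of intermediate progenitors, from 142 and 139 to 54.6 and 38.7 FPKM (-1.59). *Neurod6* and *Neurod2*, helix-loop-helix factors of postmitotic pyramidal neurons, were at 69 and 96.96 FPKM at E11.5 and 472 and 436 FPKM at E13.5 (log2 change 2.46 ± 0.18 SE, adjusted p = 1.3e-05) and 50.5 and 62.1 FPKM at E11.5 and 218 and 229 FPKM at E13.5 (log2 change 1.98 ± 0.14 SE, adjusted p = 1.3e-05). *Sstr2*, a somatostatin receptor of migrating neurons, rose with them (0.80), and *Rnd2* was the other member that rose. All 4 libraries kept to the order of their stage in each of these genes, as in all 3170 called genes.

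Transcription factors of the cortical layers rose more often than they fell. Of 28 listed, 16 rose, 7 fell and 5 were not called (median 0.84, 1.11 scaled). Beside *Nfix*, *Sox5*, a factor of early corticofugal neurons, rose from 8.78 and 11.1 to 69.9 and 82.1 FPKM (2.82) and *Nfib*, a nuclear factor I protein, from 41.9 and 54.5 to 265 and 321 FPKM (2.58). Of the 4 nuclear factor I genes, a family taken up after its values were seen, *Nfia*, *Nfib* and *Nfix* rose and *Nfic* was not called. *Etv1* (-3.85), *Foxp2* (13.98 and 12.7 to 2.61 and 2.55 FPKM; -2.002), *Pou3f2* (13.8 and 14.6 to 4.297 and 1.88 FPKM; -1.96) and *Cux1* (45.9 and 42.95 to 21.1 and 15.54 FPKM; -1.25) were the largest of the 7 decreases. *Fezf2* (28.9 and 30.5 to 92.2 and 103 FPKM) and *Bcl11b* (29.4 and 41.7 to 72.7 and 86.6 FPKM), factors of corticofugal neurons, were also among the gains, and *Tbr1* was not called (268 and 268 to 225 and 228 FPKM).

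Elements read by helix-loop-helix and EBF factors, both of which changed, were searched for in the promoters on both strands. The E-boxes CAGCTG and CAGATG are 6-base elements read by helix-loop-helix factors. They were in 18.4% and 11.502% of promoters of genes called higher and 18.4% and 11.9% of those called lower. Among promoters of all listed genes they were in 17.7% and 11.7%, and among all promoters in 16.3% and 17.2%. The core CCCNNGGG of the motif read by EBF factors was in 19.95% of promoters of genes called higher, 20.97% of those called lower, 20.4% of all listed genes and 13.7% of all promoters. Genes called higher and lower together make up most of the listed genes, so their shares and that of all listed genes are not independent. In the promoters found for 13 of the 19 CR genes, the EBF core was in 4 of 17, of which *Car10* had 2 and *Reln* and *Ebf3* 1 each. *Ebf3*, which fell, and *Reln*, which rose, are shown with the core in capitals, beside *Nfix* with CAGCTG and *Tiam2* with the reverse complement of CAGATG. *Ebf3* is at chr7:137314396-137314695 (minus strand), *Reln* at chr5:22344656-22344955 (minus strand), *Nfix* at chr8:84775779-84776078 (minus strand) and *Tiam2* at chr17:3482065-3482364 (plus strand), the last 2 being starts within the gene.
Ebf3: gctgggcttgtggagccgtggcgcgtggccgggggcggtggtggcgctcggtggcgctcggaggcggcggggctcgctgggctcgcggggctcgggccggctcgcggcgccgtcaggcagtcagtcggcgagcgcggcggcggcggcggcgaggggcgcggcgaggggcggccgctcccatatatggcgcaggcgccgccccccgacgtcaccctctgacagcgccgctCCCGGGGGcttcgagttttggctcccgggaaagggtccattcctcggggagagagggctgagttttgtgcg
Reln: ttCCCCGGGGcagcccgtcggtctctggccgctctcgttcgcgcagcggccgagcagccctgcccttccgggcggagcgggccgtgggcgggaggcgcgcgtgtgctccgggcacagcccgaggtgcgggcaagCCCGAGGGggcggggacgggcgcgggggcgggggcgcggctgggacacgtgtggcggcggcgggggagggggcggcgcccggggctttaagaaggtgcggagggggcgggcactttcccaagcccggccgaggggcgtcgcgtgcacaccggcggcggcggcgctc
Nfix: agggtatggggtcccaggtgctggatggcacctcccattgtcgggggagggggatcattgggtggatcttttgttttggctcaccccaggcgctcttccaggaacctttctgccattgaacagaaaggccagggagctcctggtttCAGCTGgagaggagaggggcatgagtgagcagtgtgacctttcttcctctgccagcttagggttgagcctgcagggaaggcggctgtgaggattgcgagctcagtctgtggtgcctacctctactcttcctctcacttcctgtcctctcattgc
Tiam2: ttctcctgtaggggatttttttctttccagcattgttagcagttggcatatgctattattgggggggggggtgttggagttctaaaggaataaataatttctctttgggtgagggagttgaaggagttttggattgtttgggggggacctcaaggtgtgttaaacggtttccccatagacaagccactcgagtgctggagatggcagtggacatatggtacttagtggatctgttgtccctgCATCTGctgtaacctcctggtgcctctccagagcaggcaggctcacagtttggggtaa

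Axon guidance genes changed in both directions in like numbers. Of 43 listed, 18 rose, 19 fell and 6 were not called (median -0.06, 0.21 scaled). Those that rose made 41.9%, against 24.5% of all listed genes, and those that fell 44.2%, against 40.7%. Among receptors, *Plxnd1*, a plexin, rose from 4.88 and 7.12 to 46.8 and 45.6 FPKM (2.77) and *Unc5d*, a netrin receptor, from 1.76 and 1.87 to 8.79 and 9.25 FPKM (1.83), while its relative *Unc5c* fell from 3.598 and 4.49 to 0.532 and 0.354 FPKM (-1.803) and *Robo3* fell as given above. Among ligands and partners, *Sema4d*, a semaphorin, rose from 2.28 and 2.56 to 19.2 and 17.7 FPKM (2.51) and *Flrt2*, which binds UNC5 receptors, from 4.18 and 5.96 to 25.1 and 20.4 FPKM (1.98). *Efna5*, an ephrin, fell from 12.7 and 11.6 to 3.21 and 2.58 FPKM (-1.76) and *Ntn1*, for netrin, from 2.58 and 2.41 to 0.282 and 0.0959 FPKM (-1.56).

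Genes of the axonal cytoskeleton moved both ways. Of 29 listed, 4 rose, 7 fell and 18 were not called, and with median-of-ratios scaling 10 rose and 5 fell (median 0.02, 0.31 scaled). As deposited, 13.8% rose and 24.1% fell, both under the 24.5% and 40.7% of all listed genes. The neurofilament genes *Nefl*, *Nefm* and *Ina* fell, from 29.2 and 20.7 to 8.23 and 4.74 FPKM (-1.81), from 32.2 and 28.02 to 15.3 and 13.2 FPKM (-1.03) and from 361 and 298 to 179 and 204 FPKM (-0.78). *Nefl* and *Nefm* overlap on opposite strands, as do *Ina* and *Nt5c2*. Reads of such overlaps cannot be told apart, because the strand of the reads is not stated. *Dpysl4*, a growth cone phosphoprotein, fell from 77.5 and 61.6 to 21 and 18.4 FPKM (-1.76). *Cntn2*, an axonal adhesion molecule, rose from 99.7 and 106 to 188 and 255 FPKM (1.08), *Mapt*, for tau, from 90.01 and 84.3 to 164 and 169 FPKM (0.92), *Gap43* from 224 and 192 to 319.6 and 293 FPKM (0.56) and *L1cam* from 67.04 and 76.3 to 91.2 and 95.8 FPKM (0.38). Without E13.5 replicate 1, *Gap43* and *L1cam* were not called (adjusted p = 0.070 and 0.059), which left 2 members higher. *Gap43* was also lost without E11.5 replicate 2 (0.096), and *L1cam* without replicate 1 of E11.5 (0.19) or replicate 2 of E13.5 (0.11).

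Synaptic genes rose more often than they fell. Of 38 synaptic vesicle and release genes 16 rose, 5 fell and 17 were not called, and with median-of-ratios scaling 26 rose and 4 fell (median 0.34, 0.59 scaled). *Syn2*, a synapsin, was at 2.76 and 3.84 FPKM at E11.5 and 22.4 and 15.4 FPKM at E13.5 (log2 change 2.198 ± 0.22 SE, adjusted p = 5.9e-05). *Cplx1*, a complexin, went from 9.27 and 8.796 to 36.4 and 38.8 FPKM (1.94), *Syngr1*, a synaptogyrin, from 3.46 and 4.71 to 17.3 and 18.1 FPKM (1.89) and *Sncb*, for beta-synuclein, from 6.93 and 9.01 to 31.3 and 22.3 FPKM (1.62). Among those that fell, *Slc17a6*, the vesicular glutamate transporter of early neurons, went from 49.3 and 58.01 to 19.1 and 13.55 FPKM (-1.67), *Syt13* from 10.3 and 8.095 to 1.1 and 0.458 FPKM (-2.54), *Sncg*, for gamma-synuclein, from 6.13 and 3.95 to 0.182 and 0.0654 FPKM (-2.41) and *Rims2*, of the release site, from 8.91 and 10.3 to 4.37 and 3.88 FPKM (-1.05).

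Glutamate receptor subunits divided evenly, with 7 of 16 higher, 7 lower and 2 not called under both scalings. The share was 43.75% each way, against 24.5% higher and 40.7% lower among all listed genes as deposited. *Grik3*, a kainate receptor subunit, was at 1.505 and 1.95 FPKM at E11.5 and 18.9 and 28.4 FPKM at E13.5 (log2 change 3.15 ± 0.22 SE, adjusted p = 1.2e-05), *Gria3*, an AMPA receptor subunit, at 1.65 and 1.64 FPKM at E11.5 and 16.6 and 18.5 FPKM at E13.5 (2.81), *Grin2b*, of the NMDA receptor, at 1.26 and 1.98 FPKM at E11.5 and 6.58 and 10.3 FPKM at E13.5 (1.84) and *Grm5*, a metabotropic receptor, at 0.246 and 0.2902 FPKM at E11.5 and 3.79 and 3.03 FPKM at E13.5 (1.79). The decreases included those of *Grm8* (-1.09), *Grik4* (-1.03) and *Grm3* (-0.78), and the metabotropic *Grm2* and *Grm4* fell as well.

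Among receptor subunits for GABA and glycine, 8 of 11 listed rose, 0 fell and 3 were not called (median 0.58, 0.83 scaled). *Glra2*, a glycine receptor subunit of embryonic neurons, was at 4.64 and 4.68 FPKM at E11.5 and 39.8 and 28.1 FPKM at E13.5 (log2 change 2.61 ± 0.18 SE, adjusted p = 1.2e-05), and its partner *Glrb* went from 1.74 and 2.27 to 5.44 and 4.19 FPKM (0.95). The alpha subunits *Gabra5* and *Gabra2* went from 0.861 and 0.807 to 5.88 and 3.91 FPKM (1.66) and from 3.82 and 4.102 to 15.6 and 10.3 FPKM (1.46), and the beta subunit *Gabrb1* rose by 0.67 on the log2 scale. The metabotropic *Gabbr1* (0.55) and *Gabbr2* (0.54) rose as well. *Gabra3* (0.40) and *Gabrb2* (0.01) did not pass the test, and *Gabra3* passed it as higher with median-of-ratios scaling. *Gabbr2* was not called without either E11.5 library (adjusted p = 0.12 and 0.14) or E13.5 replicate 2 (0.072).

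Voltage-gated channel genes showed 11 increases, 7 decreases and 19 without a call among 37, and 16 and 5 with median-of-ratios scaling. *Kcna1*, a delayed rectifier potassium channel, was nearly absent at E11.5, at 0.0503 and 0.0881 FPKM at E11.5 and 4.26 and 4.67 FPKM at E13.5 (log2 change 2.35 ± 0.14 SE, adjusted p = 6.9e-06). *Kcnq3* and *Kcnq5*, of the M-current, went from 1.65 and 2.62 to 17.2 and 23.4 FPKM (2.77) and from 0.229 and 0.366 to 2.19 and 2.55 FPKM (1.38), and *Cacna1e*, an R-type calcium channel, from 1.95 and 2.93 to 12.9 and 17.7 FPKM (2.24). The potassium channel gene *Kcnh2* (13.3 and 12.6 to 4.28 and 3.86 FPKM; -1.46), the sodium channel gene *Scn3a* (14 and 17.6 to 5.74 and 4.63 FPKM; -1.44), *Cacna2d2* and *Cacng5* (-0.72) had the largest decreases. Without E11.5 replicate 2, 4 members were lower.

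Immediate early genes are induced by neuronal activity and by tissue dissociation. Of 14 listed immediate early and heat shock genes 7 rose, 1 fell and 6 were not called at E13.5. *Fos* was at 28.6 and 13.01 FPKM at E11.5 and 40.4 and 141 FPKM at E13.5 (log2 change 1.91 ± 0.51 SE, adjusted p = 0.010), *Fosb* at 4.73 and 3.17 FPKM at E11.5 and 7.62 and 29.7 FPKM at E13.5 (1.73), *Nr4a1* at 1.95 and 2.77 FPKM at E11.5 and 9.28 and 11.97 FPKM at E13.5 (1.79) and *Fosl2* at 0.765 and 0.9296 FPKM at E11.5 and 4.47 and 7.96 FPKM at E13.5 (1.92). E13.5 replicate 2 was the highest library for all 4. *Btg2* fell, from 15.2 and 12.5 to 9.48 and 6.86 FPKM (-0.70). Without E11.5 replicate 2 only 2 members were called higher and without E13.5 replicate 2 only 5, and *Fos* was called in neither (adjusted p = 0.064 and 0.072). *Fosb* was lost without E11.5 replicate 2 (0.059), and *Btg2* without E11.5 replicate 1 (0.11) or E13.5 replicate 2 (0.050). The summed level of the list was 260.1 and 155 FPKM at E11.5 and 250.03 and 436 FPKM at E13.5, and the part of dissociation in these values was not tested.

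**Figure D4:**
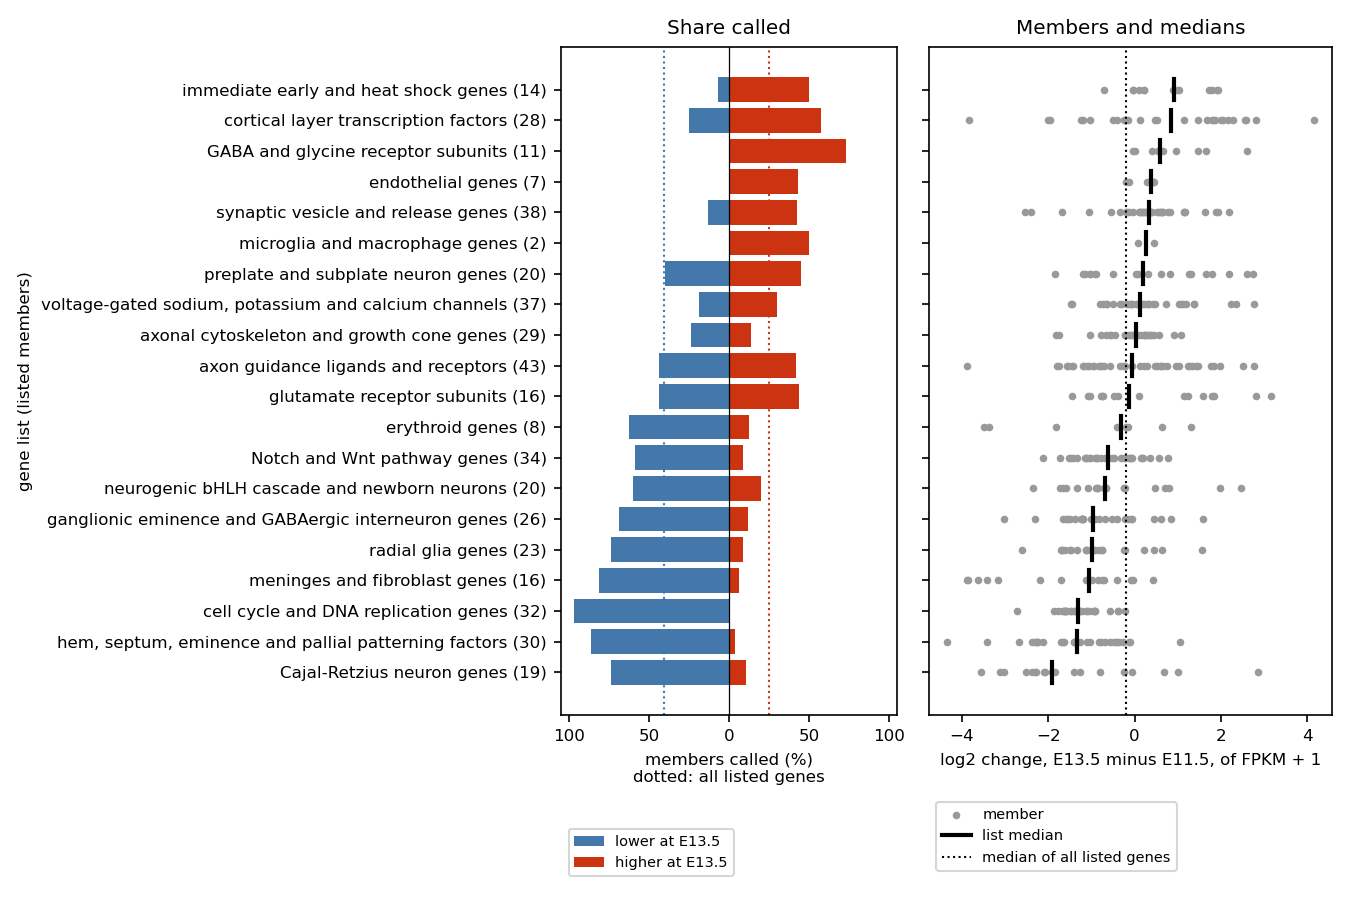
Left, percent of the listed members of each gene list called lower (to the left of 0) or higher (to the right) at E13.5, with dotted lines at the 40.7% and 24.5% of all listed genes. Right, log2 change of FPKM + 1 of each member (points) with the list median (bar) and the median of all listed genes (dotted line, -0.20), for example -1.91 for the CR list and 0.92 for the immediate early list.

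Among lncRNAs, 70 of 200 transcripts (35%) were called, 31 higher and 39 lower at E13.5, and with median-of-ratios scaling 68 (34%), 36 higher and 32 lower. The median log2 change was -0.06 as deposited and 0.07 scaled, with the factors taken from the listed genes. Fewer transcripts were called in each fit with 1 library left out. Without either of the E11.5 libraries 2 were higher and 11 lower, and without E13.5 replicate 1 there were 17 and 24. Without E13.5 replicate 2, limma called 0 transcripts, with 74 at an unadjusted p under 0.05 and a smallest adjusted p of 0.050. Over these 4 fits the log2 change of *H19* ran from -3.70 to -2.87 (-3.29 with all libraries) and that of *Gm17750* from 2.30 to 2.46 (2.38). All 70 called transcripts had both libraries of 1 stage above both of the other. So did 64 of the 130 transcripts not called, which makes 134 of all 200. The names and positions below refer to single GENCODE transcripts, of which 196 of 200 were found in GENCODE M21.

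*H19*, the imprinted lncRNA of the *Igf2* locus, fell most, at 25.8 and 34.96 FPKM at E11.5 and 3.25 and 1.38 FPKM at E13.5 (log2 change -3.29 ± 0.34 SE, adjusted p = 0.0076). Its transcript lies at chr7:142575529-142578143 on the minus strand. *Igf2*, for the insulin-like growth factor of embryos, fell in the same libraries, from 14.2 and 17 to 1.28 and 0.508 FPKM (log2 change -3.16 ± 0.23 SE, adjusted p = 1.4e-05). *D930028M14Rik* went from 7.93 and 5.91 to 0.0869 and 0.0869 FPKM (-2.85) and overlaps the coding gene *Pou2f2*, which fell (-1.53). *Gm2694*, next to *Cbln1* at a distance of 203 bases on the other strand, went from 26.05 and 19.2 to 4.73 and 0.865 FPKM (-2.84 ± 0.58 SE), and *Cbln1* fell (-0.88). With 1 library left out, the log2 change of *Gm2694* ran from -3.65 to -2.03. *Gm20649*, which overlaps *Onecut1* on the same strand, was at 3.07 and 2.34 FPKM at E11.5 and at 6.93e-26 and 0 FPKM at E13.5, and *Onecut1*, a cut homeobox factor, fell (-1.97). *Gm28050* went from 23.3 and 23.1 to 5.89 and 3.77 FPKM (-2.08).

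The largest increase was that of *Gm17750*, from 4.63 and 4.21 to 28.8 and 25.7 FPKM (log2 change 2.38 ± 0.13 SE, adjusted p = 0.0062). *4833418N02Rik*, beside *Ttc7*, went from 1.02 and 1.004 to 5.603 and 6.24 FPKM (1.78), and *Gm12063*, which lies 689 bases from *Bcl11a*, from 2.41 and 3.59 to 11.52 and 11.55 FPKM (1.66), while *Bcl11a* was not called (0.13). *Gm20687*, which lies 3887 bases from *Zfhx2*, rose from 2.06 and 3.94 to 11.1 and 8.98 FPKM (1.498 ± 0.28 SE), whereas *Zfhx2* fell (-1.72). With 1 library left out, the log2 change of *Gm20687* ran from 1.15 to 1.84. Of the 200 transcripts, 115 had a listed coding gene as nearest neighbour within 50000 bases. In 42 of these pairs both were called, 40 in the same direction and 2 in opposite directions, and in the rest a call was missing. Over all features, 31 transcripts were called higher and 39 lower, and 24.5% of genes higher and 40.7% lower. Some pairs would agree by these shares alone, and a link between neighbours was not tested. The pairs are not independent, since *Onecut1*, *Six3* and *Zic2* each entered with several transcripts. Among the 40, *A830039N20Rik* and *Gm9581* are protein-coding transcripts in GENCODE M21 that overlap *Kcnma1* and *Crybg3* on the same strand. In the 200, 109 transcripts overlap a coding gene and 79 of them on the opposite strand, so reads of both may have been counted for either. For *Fcor*, *Gm8773* and *Tunar* the coding gene overlapped was the transcript's own.

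**Figure D5:**
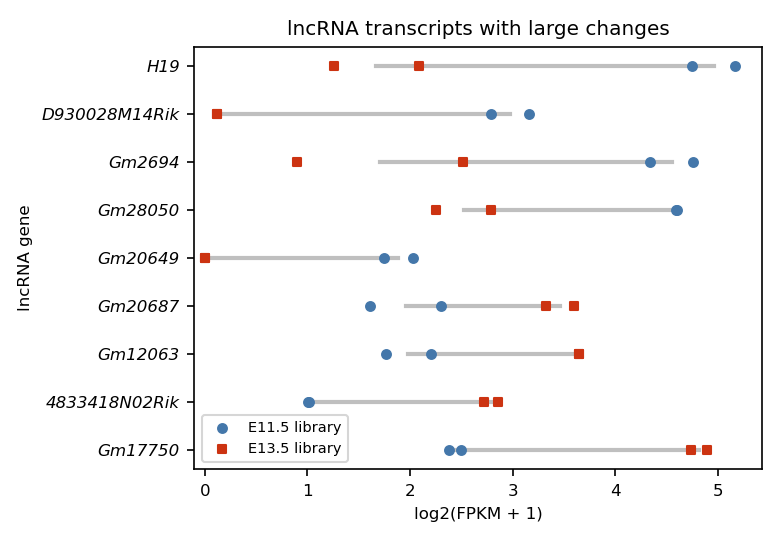
log2(FPKM + 1) in each library (circles, E11.5; squares, E13.5) of lncRNA transcripts with a large decrease (top, 5) or increase (bottom, 4), with a bar joining the stage means. *H19* is highest at E11.5 among those that fell, and *Gm17750* is highest at E13.5.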

How the data were processed

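The study sequenced polyadenylated RNA of FACS-sorted cortical cells. The authors aligned reads to mm10 with TopHat2 2.0.8b, computed expression with Cufflinks 2.2.0 and deposited FPKM per library in a table of genes and one of lncRNAs, any further scaling not being given in the sources used here. The tables' fold and p-value columns, which compare the populations, were not used. Only the 4 Ebf2-EGFP+ libraries of E11.5 and E13.5 entered the main comparison, grouped by their labels. The stages were compared by two-sided limma tests (version 3.58.1, R 4.3.3) of log2(FPKM + 1), with variances moderated along a trend on mean level. P-values were adjusted per table by Benjamini-Hochberg, and an adjusted p under 0.05 was a call. Fold changes on this scale understate those of low genes. The fit was tested on simulated data. Nothing in the labels ties a replicate to 1 litter, so p-values measure the spread between these samples. An exact permutation test of 2 against 2 cannot go below 0.333. The members and lists were chosen with earlier results of these data known.

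Named were *Ebf2*, *Syt4* and *Rnd2*, the 12 called genes and 5 called lncRNA transcripts with the largest change in each direction and no overlap of libraries, all members of lists with at most 12 listed genes and of the CR and subplate lists, and otherwise the 4 called genes of each list with the largest change in each direction. This gave 175 genes and 10 lncRNAs, of which a few are not reported here, and others are named as neighbours, by their list or after their values were seen. Of the 175 genes 173 were placed in GENCODE M21, and 22 overlap another coding gene. The alternatives tried were other scalings, filters, pseudocounts, fits, thresholds and sets of libraries.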

Additional observations from a re-analysis of the deposited data

How the results depend on the processing

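Beyond a threshold of 2-fold (462 genes higher and 713 lower), no alternative moved the counts of genes by over 1.5 times. Leaving out each library gave 882 to 1104 genes higher and 1483 to 2032 lower. The median log2 change of all listed genes was -0.28 with a pseudocount of 0.1 and -0.0075 with median-of-ratios scaling. LncRNA counts were 12 higher and 15 lower at an adjusted p under 0.01 and 16 and 21 with a 2-fold change, and ranged from 0 to 17 and from 0 to 24 when a library was left out. The lncRNA median was 0.070 with median-of-ratios scaling and -0.11 to -0.037 when a library was left out. When a library is left out, the lone library of its stage is assumed to vary like the other stage.

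Of the 178 named features reported here, 163 were called, against 65.2% of all listed genes and 35% of all lncRNA transcripts. Many were named because they were called with the largest changes, so the counts here do not stand for all features. Over 1939 repeats under the alternatives, 1830 kept direction and side of the threshold, 84 lost the call, 14 gained one and 11 turned direction, the last in features without a call. With median-of-ratios scaling *Car10* was at 0.087 and *Slc2a1* at 0.049. When a library was left out, log2 changes ran from -0.71 to 0.21 for *Ndnf*, -0.19 to 0.060 for *Car10*, -0.040 to 0.10 for *Ctgf*, -0.0024 to 0.17 for *Kcnab1*, -0.11 to 0.13 for *Gabrb2*, -0.58 to 1.85 for *Hbb-b1*, -0.010 to 0.76 for *Kdr* and -0.044 to 0.19 for *Cd68*. With only features of at least 1 FPKM on average, 9 interneuron and 9 meningeal genes were lower, since fewer were tested.

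The labels share replicate numbers, but deviations from the stage means correlated between same-numbered libraries at only 0.0896 over the gene table and 0.0670 over lncRNAs, so the numbers were not taken as pairs. With the replicate block, 1298 genes were higher and 2089 lower, and 38 and 46 lncRNAs. Depth per library is not in the tables, and 2 libraries a stage limit precision.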

Other observations

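The families below were picked after their values were seen. Of 21 listed collagen genes, 19 fell, 0 rose, and *Col23a1* and *Col4a6* were not called, with a median log2 change of -0.84 (-0.67 scaled). *Col1a1*, *Col1a2*, *Col3a1*, *Col4a1* and *Col4a2* are also in the list of meningeal and fibroblast genes, of which 13 of 16 fell, and the part of meningeal RNA in the collagen values was not tested. The 3 listed *Onecut* genes all fell under both scalings. The 3 listed RNA-binding protein genes *Igf2bp1* (from 24.7 and 27.8 to 6.72 and 6.11 FPKM), *Igf2bp2* (from 42.4 and 43.2 to 17.7 and 15.4 FPKM) and *Igf2bp3* (from 26.98 and 24.1 to 14.2 and 10.8 FPKM) fell as well. Their median was -1.32 (-1.05 scaled).

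Of 23 listed genes known to be imprinted, 14 fell, 2 rose and 7 were not called, and with median-of-ratios scaling 11 fell and 4 rose. Beside *Igf2*, *H19* and *Dlk1*, *Peg10*, a retrotransposon-derived gene, went from 32.8 and 33.1 to 6.24 and 6.41 FPKM (-2.21), *Grb10*, an adaptor of growth factor receptors, from 55.7 and 55.3 to 18.1 and 13.4 FPKM (-1.77), and *Mest* from 74.4 and 66.3 to 27.3 and 26.2 FPKM (-1.36). *Ndn*, for necdin, rose from 347 and 275 to 523 and 405 FPKM (0.57). *Meg3*, the lncRNA partner of *Dlk1*, was at 13.02 and 41.8 FPKM at E11.5 and 10.2 and 13 FPKM at E13.5 in the gene table and was not called (adjusted p = 0.068), with E11.5 replicate 2 the highest library.

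Of 10 vacuolar ATPase subunit genes 7 rose and 0 fell (9 and 0 with median-of-ratios scaling). Of 5 nicotinic receptor subunit genes *Chrna4*, *Chrna3* (17.7 and 16.9 to 1.47 and 0.653 FPKM) and *Chrnb4* (5.61 and 4.22 to 0.535 and 0.376 FPKM) fell and *Chrna7* rose (1.96 and 1.53 to 13.3 and 15.54 FPKM).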
